A study of Mus musculus with 4 samples.

Results

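The connexin and pannexin genes Gja1, Gja4, Gjb2, Gjb5, Gjc1, Panx1 and Panx3 were followed in cardiac fibroblasts given TGFbeta or vehicle. These 7 genes were picked by symbol from the 33641 genes in the files, with their levels in these same libraries already known, TGFbeta against vehicle. Their levels are therefore given as a description and carry no test. Beside them, 12 other genes of both families were analysed, of which 3 were abundant enough to test, so 16 connexins and 3 pannexins are described in all.

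The TGFbeta group had 2 libraries, from cultures that received 10 ng/ml of this cytokine, which drives fibroblasts toward contractile myofibroblasts, and the vehicle group had 2 libraries from cultures without it; the libraries of a group are called 1 and 2. Both groups were primary cells isolated from hearts of wild-type C57BL/6J mice at 12 weeks of age, cultured to 80% confluency. All cultures, controls included, were labelled with 4-thiouridine, a photoreactive uridine analogue, 20 and 4 h ahead of irradiation at 368 nm (200000 uJ/sq.cm). The series is described as RNA bound by HuR, an RNA-binding protein, after crosslinking and immunoprecipitation, whereas the sample labels describe total RNA; no input library was analysed here, so HuR binding and cellular abundance cannot be told apart. The length of the TGFbeta exposure, and whether the 2 libraries of a group came from separate cultures or animals, are not given in the labels.

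Connexins are multi-pass membrane proteins that assemble into hemichannels; hemichannels of adjoining cells dock into gap junctions, through which ions and small metabolites pass. Pannexins have a similar fold but work mainly as channels of a single membrane and release ATP to the outside of the cell. In the heart, gap junctions carry the action potential between cardiomyocytes, and cultured cardiac fibroblasts form gap junctions with each other and with cardiomyocytes.

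Levels are in TPM, a transcript abundance that is scaled for transcript length and sums to 1000000 in each library, so genes can be set beside each other but read depth is unknown. Between 20945 and 21671 genes per library were above 0. Log2 changes are differences of mean log2(TPM + 1), TGFbeta minus vehicle, with the standard error (SE) that limma gave. The limma test ran on 15815 genes with a mean of at least 1 TPM and called genes at an adjusted p under 0.05. It called 5.92% of them, 1.54% higher and 4.38% lower with TGFbeta, with a median log2 change over all of them of -0.13. When every gene above 0 was tested, limma called 0 of 23602 genes (4348 at an unadjusted p under 0.05), so every call given here depended on the expression filter. Defining fibroblast markers were high: Col1a1 lay between 2392 and 6221 TPM and Vim between 3245 and 4409 TPM in the 4 libraries. Of 10 fibroblast markers, 3 fell with TGFbeta, Pdgfra, Tcf21 and Fbln1, with log2 changes of -1.42, -1.11 and -1.14 (limma adjusted p = 0.0106, 0.0148 and 0.0221). These 3 calls ended without vehicle 1 and without vehicle 2, as did the calls of all other genes. That of Pdgfra also ended without TGFbeta 1, and those of Tcf21 and Fbln1 without TGFbeta 2. Col1a1 and Col1a2 went the other way, with log2 changes of 0.91 and 0.48 (limma adjusted p = 0.0958 and 0.236). Col1a1 had 6221 and 4272 TPM in TGFbeta libraries, against 3148 and 2392 TPM in vehicle libraries. With a mean of at least 5 TPM it was called higher (limma adjusted p = 0.0485). The 10 markers, mostly Col1a1, Col1a2 and Vim, summed to 14363 and 12836 TPM in TGFbeta libraries, against 12645 and 11213 TPM in vehicle libraries. These are bulk libraries, so fewer cells of a type and less RNA per cell cannot be told apart.

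RNA of the 5 chosen connexins summed to a higher level with TGFbeta and was differently composed. Together they amounted to 78.9 and 81.2 TPM in TGFbeta libraries, against 50.1 and 45.0 TPM in vehicle libraries, a 1.68-fold ratio of means. Gja1 was the most abundant of the 19 genes in every library. Of 5 chosen genes that passed the expression filter, 4 had both TGFbeta libraries above both vehicle libraries, as did 15.5% of all tested genes, and 1 overlapped. A further 39.8% of tested genes had both TGFbeta libraries below. Limma called 2 of the 7, Gja1 and Gjb5, both higher with TGFbeta; since the 7 were chosen on this contrast, nothing is read from that count.

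All 7 genes are protein-coding in the mouse annotation used here (GENCODE M21, build GRCm38). Gja1 (ENSMUSG00000050953.10) lies on the plus strand of chromosome 10 from 56377330 to 56402513. The others lie on minus strands. Gja4 (ENSMUSG00000050234.7) and Gjb5 (ENSMUSG00000042357.2) lie on chromosome 4, at 127311421 to 127314039 and 127354809 to 127358181. Gjb2 (ENSMUSG00000046352.7) is at 57098600 to 57104702 of chromosome 14 and Gjc1 (ENSMUSG00000034520.14) at 102799579 to 102819700 of chromosome 11. Both pannexin genes are on chromosome 9, Panx1 (ENSMUSG00000031934.14) at 15002128 to 15045478 and Panx3 (ENSMUSG00000011118.4) at 37659902 to 37669235. Each of the 5 connexins has its whole coding sequence in 1 exon, with 226 codons in Gjb2 and up to 396 in Gjc1, while Panx1 is coded in 5 exons and Panx3 in 4. No other annotated gene overlaps any of the 7. Of every stretch of 50 bases in their transcripts, 0 recur in another gene for 6 of the 7, and 2 of 2265 do for Gjc1.

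Promoters were read for Gja1 and Gjb5, because these had the largest differences among the 7, from 250 bases before to 50 bases after the start site (RefSeq, GRCm38.p6; 5 of the 7 genes matched). The Gja1 promoter is chr10:56377050-56377349 on the plus strand, with the AP-1 motif TGANTCA in capitals. The Gjb5 promoter is chr4:127358115-127358414 on the minus strand, with a TATAAA motif in capitals, read on the opposite strand.
Gja1: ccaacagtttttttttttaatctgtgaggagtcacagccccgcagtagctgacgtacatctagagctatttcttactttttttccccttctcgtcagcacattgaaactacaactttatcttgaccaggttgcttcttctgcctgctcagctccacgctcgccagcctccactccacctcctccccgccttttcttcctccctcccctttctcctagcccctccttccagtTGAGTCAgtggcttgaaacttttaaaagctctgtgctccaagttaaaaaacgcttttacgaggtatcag
Gjb5: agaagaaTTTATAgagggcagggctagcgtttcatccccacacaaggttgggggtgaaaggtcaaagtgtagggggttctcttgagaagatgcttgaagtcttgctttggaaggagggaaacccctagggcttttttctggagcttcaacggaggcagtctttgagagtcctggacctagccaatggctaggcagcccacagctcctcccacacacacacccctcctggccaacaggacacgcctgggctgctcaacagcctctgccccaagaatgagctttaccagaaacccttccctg
Besides TGANTCA and the TATA motif, the Smad motif CAGAC and the GC box GGGCGG were searched, all on both strands; none of these letter patterns contains another. The Gja1 match starts at position -19 from the start site, and 7.81% of 32851 promoters hold this motif. The Gjb5 match starts at position -243, and 13.6% of promoters hold it. The Gja4 promoter holds 2 CAGAC matches, a motif in 49.6% of promoters, and 1 GGGCGG at position -79, a motif in 35.7%. The letters of these 4 motifs were not in the Panx1 window.

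HuR is known to bind AU-rich stretches of 3′ untranslated regions (UTRs), so the pentamer ATTTA was counted there. The Gja1 3′ UTR holds 4 in 1720 bases, and the much longer Panx1 3′ UTR holds 7 in 4010 bases, of which several run together. The nonamer TTATTTATT occurs 2 times in Panx1 and in 7.57% of tested coding genes at least once. For each of these genes a window of 30 bases is shown that holds as many ATTTA as any other. That is 3 in Panx1 but only 1 in Gja1, where no 30 bases held more. The windows are at chr10:56388904-56388933 on the plus strand and chr9:15002507-15002536 on the minus strand (GRCm38), with ATTTA in capitals.
Gja1: ggtatgtaacggtATTTAatgtagaagatt
Panx1: attactaatATTTATTTATTTAtttttatt
Panx3 has 3 ATTTA in 1172 bases and Gjc1 has 1 in 406 bases, while Gja4, Gjb2 and Gjb5 have 0. Across 13426 tested coding genes 66.8% had at least 1 ATTTA and the median was 1.25 per kb. Gja1 had 2.33 per kb, exceeded by 29.1% of those genes, and Panx1 had 1.75 per kb, exceeded by 39.7%. Gja1 and Gjb5, the genes with the largest differences among the 7, thus lie on both sides of that median. A match describes the annotated sequence and not a binding event.

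Gja1 encodes the main gap junction protein of the working myocardium and of cardiac fibroblasts. It stood at 41.5 and 43.1 TPM in TGFbeta libraries, against 22.1 and 20.0 TPM in vehicle libraries. Both TGFbeta libraries were high, and the groups were separated by far more than either was spread. Gja1 averaged 42.3 ± 1.12 TPM with TGFbeta and 21.1 ± 1.49 TPM with vehicle (SD, n = 2 each), a ratio of 2.01. Its log2 change was 0.97 (SE 0.14) and stayed between 0.90 and 1.04 when any 1 library was left out. Of the summed TPM of the 5 connexins it took 52.6% and 53.1% in TGFbeta libraries, against 44.2% and 44.6% in vehicle libraries. Cardiomyocytes also express Gja1. The 10 cardiomyocyte markers summed to 69.3 and 75.2 TPM in TGFbeta libraries, against 89.1 and 132 TPM in vehicle libraries. Myh6, the gene of the main adult mouse cardiac myosin, reached no more than 0.394 TPM in any library, but other cardiomyocyte markers were present. Tnnt2, the cardiac troponin T gene, had 35.2 and 34.6 TPM in TGFbeta libraries, against 47.0 and 81.4 TPM in vehicle libraries (log2 change -0.81, limma adjusted p = 0.125). Tnni3, the cardiac troponin I gene, had 7.62 and 10.8 TPM in TGFbeta libraries, against 14.8 and 17.6 TPM in vehicle libraries (log2 change -0.77, limma adjusted p = 0.0955). Both were higher in the vehicle libraries. Actn2, a Z-disc actinin gene, was at 15.5 to 18.2 TPM in all libraries, and the log2 change was -0.17 for Nppa, the atrial natriuretic peptide gene (limma adjusted p = 0.750). Limma called 0 of 5 tested cardiomyocyte markers (2 at an unadjusted p under 0.05), and the part of cardiomyocytes in the Gja1 levels was not tested.

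Gjc1 encodes a connexin of the embryonic heart, the conduction system and fibroblasts. It had 11.2 and 15.2 TPM in TGFbeta libraries, against 16.4 and 13.3 TPM in vehicle libraries. The groups overlapped. The means were 13.2 ± 2.86 TPM with TGFbeta and 14.8 ± 2.21 TPM with vehicle (SD, n = 2 each), and the log2 change of -0.16 (SE 0.21) lay close to the median of all tested genes. Its sign rested on single libraries, with 0.05 without TGFbeta 1 and -0.37 without TGFbeta 2. Against a ratio of mean TPM of 0.893, its share of the 5 connexins' TPM was 14.2% and 18.8% in TGFbeta libraries, against 32.7% and 29.5% in vehicle libraries. In TGFbeta libraries its mean level had rank 4 of the 19 genes, and its range met those of Gjb5 and Gja4, its neighbours in that order. In vehicle libraries its mean level had rank 2, with values that did not meet those of Gja1 above or Panx1 below.

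**Figure D1:**
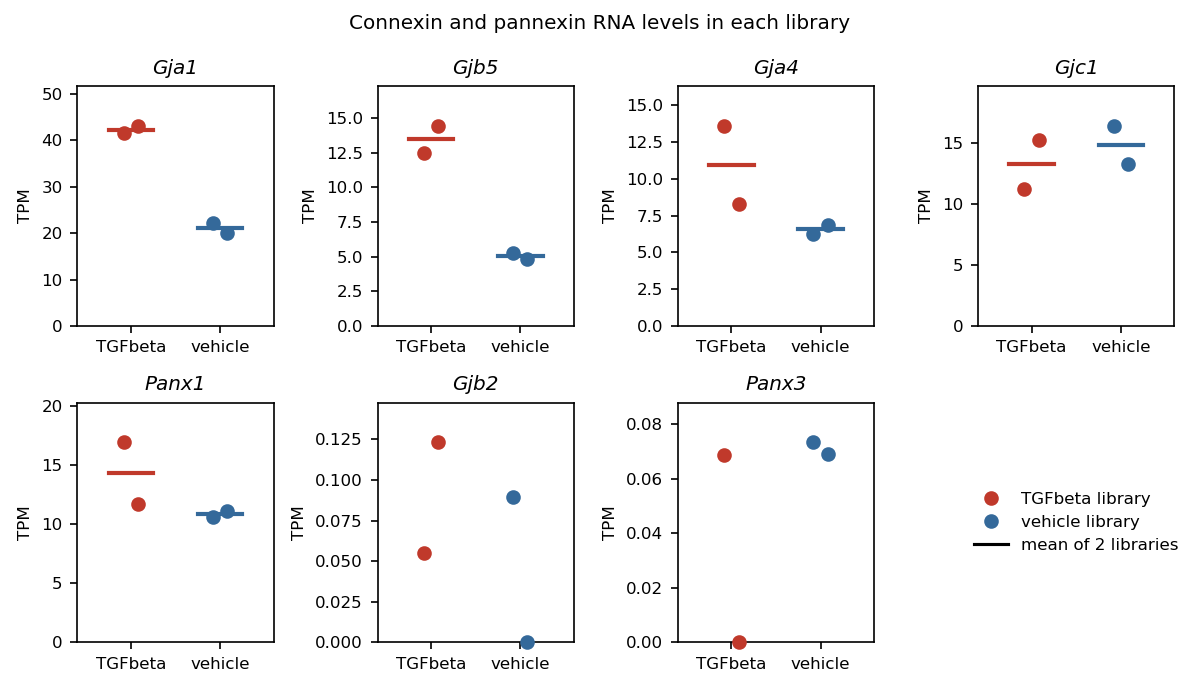
TPM of the 7 genes in each TGFbeta library (left, red) and each vehicle library (right, blue), with a line at the mean of 2 libraries for genes that passed the expression filter; each panel has its own scale from 0. Gja1 and Gjb5 are separated widely, the TGFbeta libraries of Gja4 and Panx1 lie apart from each other, Gjc1 overlaps, and Gjb2 and Panx3 stay at 0.123 TPM or less.

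Gja4 encodes a connexin best known from arterial endothelium and the ovarian follicle. Its TPM was 13.6 and 8.32 in TGFbeta libraries, against 6.28 and 6.89 in vehicle libraries. TGFbeta 1 stood well above the rest, and TGFbeta 2 was only a little above both vehicle libraries. Means were 11.0 ± 3.73 TPM with TGFbeta and 6.58 ± 0.434 TPM with vehicle (SD, n = 2 each). The log2 change was 0.62 (SE 0.25). It was 0.30 when TGFbeta 1 was left out and 0.95 when TGFbeta 2 was. The 13 endothelial markers, which mark the cell type in which Gja4 is best known, summed to 77.5 and 73.0 TPM in TGFbeta libraries, against 91.0 and 97.5 TPM in vehicle libraries. Of 11 tested, 1 rose and 0 fell, where 1.54% of all tested genes were called higher and 4.38% lower. None of the 13 markers was listed at 0 in all libraries. Erg, an ETS transcription factor gene of endothelium, rose with a log2 change of 1.57 (SE 0.20, limma adjusted p = 0.0163), to 7.55 and 8.21 TPM in TGFbeta libraries, against 2.23 and 1.76 TPM in vehicle libraries. The Erg call ended when any 1 library was left out (limma adjusted p = 0.0709 to 0.143). Cdh5, the endothelial cadherin gene and a defining marker, had 4.17 and 4.45 TPM in TGFbeta libraries, against 6.36 and 7.29 TPM in vehicle libraries (limma adjusted p = 0.140). Egfl7, a secreted endothelial factor gene, and Cldn5, an endothelial tight junction gene, both had log2 changes of -0.78 and did not pass (limma adjusted p = 0.0599 and 0.201). With a mean of at least 5 TPM, Egfl7 was called lower (limma adjusted p = 0.0282), as it was with robust limma (limma adjusted p = 0.0438), and Erg was not tested. The part of endothelial cells in the Gja4 levels was not tested.

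Gjb5 encodes a connexin of stratified epithelia and the placenta. It had 12.5 and 14.4 TPM in TGFbeta libraries, against 5.23 and 4.80 TPM in vehicle libraries. Neither group came near the other. Means were 13.5 ± 1.35 TPM with TGFbeta and 5.01 ± 0.308 TPM with vehicle (SD, n = 2 each), a ratio of 2.69, and the log2 change of 1.26 (SE 0.18) stayed between 1.17 and 1.36 with any 1 library left out. Its share of the 5 connexins' TPM was 15.9% and 17.8% in TGFbeta libraries, against 10.4% and 10.7% in vehicle libraries. Gjb2, a connexin of the inner ear, epidermis and liver, was near 0 throughout, at 0.055 and 0.123 TPM in TGFbeta libraries, against 0.089 and 0 TPM in vehicle libraries. Such values are too low for a fold. Epithelial and mesothelial markers were low as well: 9 of 12 stayed under 1 TPM in every library, the list summed to 12.2 and 12.8 TPM in TGFbeta libraries, against 14.7 and 17.5 TPM in vehicle libraries, and 0 of 3 tested genes were called by limma (1 at an unadjusted p under 0.05). These were Upk3b and Wt1, known from mesothelium, and the keratin gene Krt19, with log2 changes of -0.52, 0.37 and -0.22 (limma adjusted p = 0.174, 0.353 and 0.620). The keratinocyte genes Krt5 and Krt14 were at or near 0, with at most 0.062 and 0.131 TPM.

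Panx1 encodes the widely expressed pannexin, a channel for ATP that caspases open by cleaving its tail. It stood at 16.9 and 11.7 TPM in TGFbeta libraries, against 10.6 and 11.1 TPM in vehicle libraries. As with Gja4, TGFbeta 1 was high while TGFbeta 2 lay just above the vehicle libraries. Means were 14.3 ± 3.68 TPM with TGFbeta and 10.9 ± 0.323 TPM with vehicle (SD, n = 2 each). The log2 change was 0.35 (SE 0.21), and 0.10 without TGFbeta 1 and 0.60 without TGFbeta 2. Panx3, a pannexin of bone, cartilage and skin, had 0.069 and 0 TPM in TGFbeta libraries, against 0.073 and 0.069 TPM in vehicle libraries, so no difference can be read at this level. Of 11 bone and cartilage markers, 4 stayed under 1 TPM in every library, 6 were tested, 1 rose and 0 fell. Over all tested genes 1.54% were called higher and 4.38% lower. Acan, the gene of the cartilage proteoglycan aggrecan, rose to 13.7 and 10.7 TPM in TGFbeta libraries, against 1.22 and 0.827 TPM in vehicle libraries (log2 change 2.70, SE 0.22, limma adjusted p = 0.00633). The Acan call ended without vehicle 1 and without vehicle 2, as did the calls of all other genes. Col2a1, the gene of the main cartilage collagen, and Phex, an endopeptidase gene of bone cells, had log2 changes of 1.22 and 0.49 and did not pass (limma adjusted p = 0.0768 and 0.247). With a mean of at least 5 TPM, Col2a1 was called higher too (limma adjusted p = 0.0331). Comp, Chad and Col10a1 were named after their values were seen. Comp, the most abundant of the 11, had 74.1 and 84.4 TPM in TGFbeta libraries, against 100 and 112 TPM in vehicle libraries (log2 change -0.42, limma adjusted p = 0.142). Chad was at -0.15 and Col10a1 at 0.16. The 11 markers summed to 108 and 125 TPM in TGFbeta libraries, against 114 and 127 TPM in vehicle libraries. Sp7 and Ibsp, which mark bone-forming cells, were at most 0.091 and 0.035 TPM.

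Among the 12 other family genes analysed, limma called 0 of 3 tested (0 at an unadjusted p under 0.05); the TGFbeta libraries lay below both vehicle libraries for 1, Panx2, and overlapped with them for 2. Panx2, the pannexin best known from brain, had 0.786 and 0.470 TPM in TGFbeta libraries, against 0.837 and 2.59 TPM in vehicle libraries (log2 change -0.66, limma adjusted p = 0.324). Vehicle 2 stood apart from the other 3 libraries. Gjc3, a glial connexin, had 1.45 and 1.50 TPM in TGFbeta libraries, against 1.49 and 1.45 TPM in vehicle libraries (log2 change 0.00, limma adjusted p = 0.998), and 2.25% of its transcript stretches recur in other genes. Gja5, of atrium, conduction system and arterial endothelium, had 0.849 and 1.61 TPM in TGFbeta libraries, against 0.881 and 0.916 TPM in vehicle libraries (log2 change 0.21, limma adjusted p = 0.677), and its annotated span overlaps other genes. The remaining 9 of the 12 stayed under 1 TPM in every library. Gja10, Gjb1, Gjb6 and Gjd2, which are known from retina, liver, inner ear and neurons, were listed at 0 in all libraries.

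**Figure D2:**
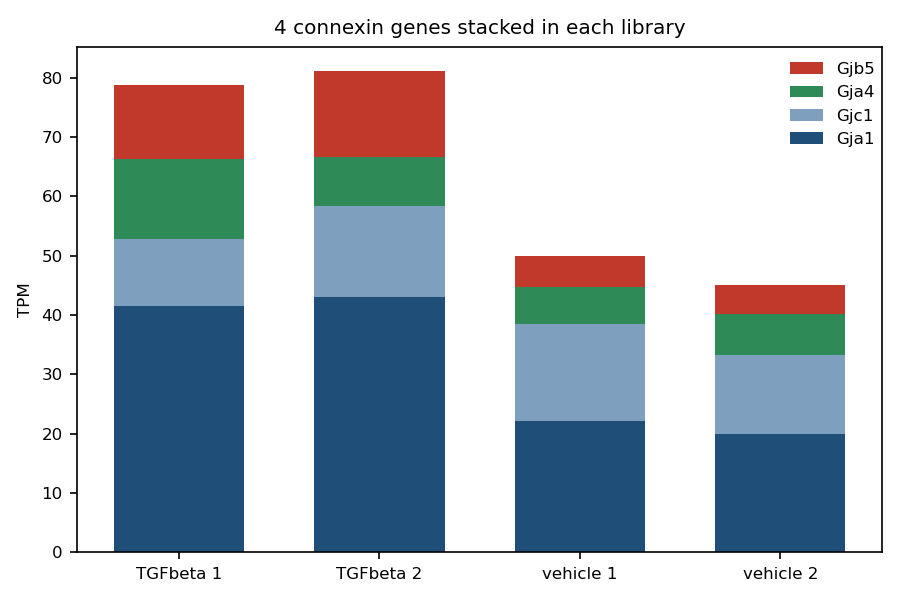
Stacked TPM of Gja1, Gjc1, Gja4 and Gjb5 in the 2 TGFbeta libraries (left) and the 2 vehicle libraries (right); Gjb2, at 0.123 TPM or less, is not drawn. With Gjb2 the sums are 78.9 and 81.2 TPM in TGFbeta libraries and 50.1 and 45.0 TPM in vehicle libraries, and the Gjc1 band takes the smaller share with TGFbeta.

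The genes with the pattern most like each chosen gene over the 4 libraries were found among 10450 tested genes with a mean of at least 5 TPM, by the root mean square (RMS) difference of centred log2(TPM + 1). Nearest to Gja1 were Mcam, Ext1 and Dapk2, with RMS differences of 0.018, 0.022 and 0.048. Nearest to Gjb5 were Cadm4 at 0.026, Ctgf at 0.063 and Cgref1 at 0.070. Ctgf, the gene of a matricellular protein that TGFbeta is known to induce, had 5637 and 5698 TPM in TGFbeta libraries, against 2485 and 2285 TPM in vehicle libraries. Rbfox1, Slc7a7 and Cpeb2 were nearest to Gja4, at 0.071 to 0.078, and Shroom1, Rtkn and Furin to Panx1, at 0.032 to 0.042. Gjc1 was nearest to Pls3, Olfr509 and Ahsa2, at 0.009 to 0.018. Within 0.1 there were 32 genes for Gja1, 9 for Gjb5, 11 for Gja4, 63 for Panx1 and 497 for Gjc1. The pattern of Gjc1, lowest in TGFbeta 1 and highest in vehicle 1, was thus the most common of the 5.

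Among 28 genes for scaffold, trafficking and turnover of gap junctions, 0 of 26 tested were called in either direction by limma (5 at an unadjusted p under 0.05). Their median log2 change was 0.00, and 0.16 and 0.14 after median scaling and quantile normalization, which put the median of all tested genes at 0.03 and 0.02. The absence of calls depended on the setting. Dsp was called higher with TGFbeta after median scaling, after quantile normalization and with robust limma (limma adjusted p = 0.0461, 0.0432 and 0.0403), and Kif5b after median scaling (limma adjusted p = 0.0481). With a mean of at least 5 TPM, Dbn1, the gene of the actin-binding protein drebrin, was called lower (limma adjusted p = 0.0376); it was named after its values were seen. The largest values were those of Dsp, which encodes the desmosomal plaque protein desmoplakin, at 0.98 (limma adjusted p = 0.0568), of Nov, a CCN family gene, at 0.73 (limma adjusted p = 0.538), and of Kif5b, a kinesin motor gene, at 0.61 (limma adjusted p = 0.101). Nov was high in TGFbeta 2 alone, with 11.4 and 52.4 TPM in TGFbeta libraries, against 17.9 and 11.8 TPM in vehicle libraries.

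Of 17 kinases known to phosphorylate the Gja1 protein or to act on its junctions, 3 fell and 0 rose, where 4.38% of all tested genes were called lower and 1.54% higher. Their median log2 change was -0.28, against -0.13 for all tested genes, and -0.13 and -0.15 after median scaling and quantile normalization. Prkcd, a protein kinase C gene, fell to 74.9 and 73.8 TPM in TGFbeta libraries, against 128 and 135 TPM in vehicle libraries (log2 change -0.81, SE 0.13, limma adjusted p = 0.0258). Cdk1, the mitotic kinase gene, fell to 23.1 and 24.7 TPM in TGFbeta libraries, against 53.7 and 40.1 TPM in vehicle libraries (log2 change -0.93, SE 0.18, limma adjusted p = 0.0424). The Janus kinase gene Tyk2 had a log2 change of -0.84 (SE 0.15, limma adjusted p = 0.0371). Of 15 transcription factors linked to connexin genes, 1 fell and 0 rose, beside the same 4.38% called lower and 1.54% called higher over all tested genes. Their median log2 change was -0.24, and -0.08 and -0.10 after those scalings. Klf4 had a log2 change of -0.72 (SE 0.15, limma adjusted p = 0.0464). The cardiac factors Nkx2-5 and Tbx5, at -0.66 and -0.49, did not pass (limma adjusted p = 0.166 and 0.183). All 4 calls ended with any 1 library left out (limma adjusted p = 0.0858 to 0.254). Each also ended without an intensity trend, and after median scaling, quantile normalization or both.

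Beside Panx1, 0 of 14 tested genes for other ATP release channels and for Panx1 cleavage were called by limma (1 at an unadjusted p under 0.05), and their median was -0.08. That median lay above 0 after median scaling and quantile normalization, at 0.07 and 0.06. Their largest changes were -0.83 for the calcium homeostasis modulator gene Fam26f, 0.48 for the vesicular nucleotide transporter gene Slc17a9 and 0.37 for the volume-regulated channel gene Lrrc8a (limma adjusted p = 0.116, 0.245 and 0.256). Of 14 genes for extracellular nucleotide and adenosine handling, 12 were tested, 1 fell and 0 rose, with a median of 0.07. After median scaling and quantile normalization that median was 0.22 and 0.17. The median of all tested genes was -0.13, and 0.03 and 0.02 after those scalings. Over all tested genes 4.38% were called lower and 1.54% higher. Entpd2, an ectoenzyme that converts ATP to ADP, fell to 14.5 and 12.7 TPM in TGFbeta libraries, against 50.8 and 60.9 TPM in vehicle libraries (log2 change -1.96, SE 0.16, limma adjusted p = 0.00642). The Entpd2 call ended without vehicle 1 and without vehicle 2, as did the calls of all other genes. The nucleoside transporter gene Slc29a1 and the purine phosphorylase gene Pnp, at -0.59 and -0.58, did not pass (limma adjusted p = 0.0630 and 0.0574). With a mean of at least 5 TPM, both were called lower (limma adjusted p = 0.0375 and 0.0355). Pnp was also called lower with robust limma (limma adjusted p = 0.0475).

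Of 18 purinergic receptor genes, 11 were tested, 2 fell and 0 rose, where 4.38% of all tested genes were called lower. Their median log2 change was -0.59, against -0.13 for all tested genes. It was -0.43 and -0.41 after median scaling and quantile normalization, and -0.73 and -0.33 with pseudocounts of 0.1 and 5. At an unadjusted limma p under 0.05 were 9 of the 11, against 3873 of all 15815 tested genes. After median scaling 4 of the 11 were, against 3490 of all 15815. Both that were called lower encode adenosine receptors that raise cyclic AMP. Adora2a fell to 5.02 and 4.00 TPM in TGFbeta libraries, against 33.6 and 17.9 TPM in vehicle libraries (log2 change -2.22, SE 0.31, limma adjusted p = 0.0200). Adora2b fell to 2.59 and 2.92 TPM in TGFbeta libraries, against 11.8 and 7.69 TPM in vehicle libraries (log2 change -1.49, SE 0.24, limma adjusted p = 0.0284). In both, every TGFbeta library lay below both vehicle libraries, of which vehicle 1 was the higher. Each call ended with any 1 library left out (limma adjusted p = 0.0726 to 0.146). The ATP-gated channel genes P2rx6 and P2rx7 had log2 changes of -0.88 and -0.70 and did not pass (limma adjusted p = 0.140 and 0.0740). With a mean of at least 5 TPM, P2rx7 was called lower (limma adjusted p = 0.0392) and P2rx6 was not tested. P2rx7 was named after its values were seen. P2ry6, also named after its values were seen, was the single tested receptor above 0, at 0.41 (limma adjusted p = 0.196). It was among the 9 at an unadjusted limma p under 0.05, so these did not all fall.

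**Figure D3:**
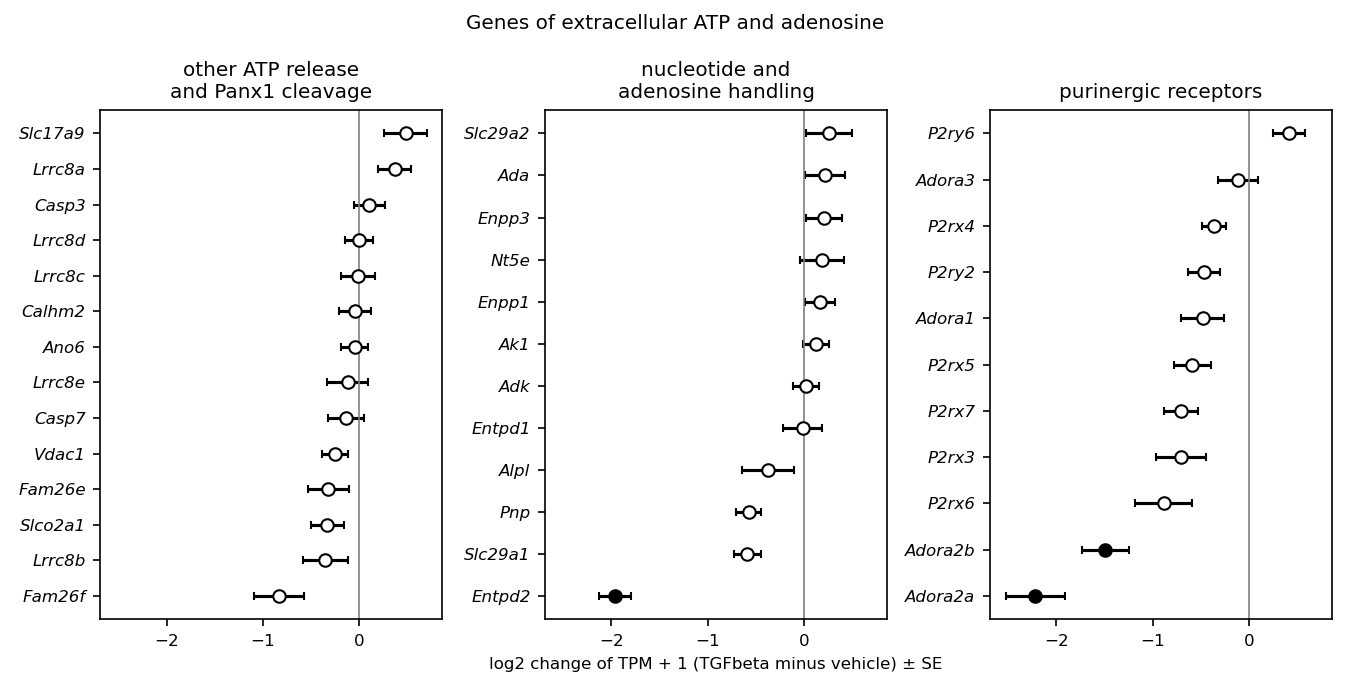
Log2 change of TPM + 1, TGFbeta minus vehicle, with bars of 1 SE, for the tested genes of 3 lists; filled points passed limma at an adjusted p under 0.05. Entpd2, Adora2b and Adora2a are the filled points, at -1.96, -1.49 and -2.22.

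Markers of other cell types gave 1 more call. Of 10 pericyte and smooth muscle markers, 7 were tested, 1 fell and 0 rose. Over all tested genes 4.38% were called lower and 1.54% higher. The summed level of the 10 markers was 383 and 352 TPM in TGFbeta libraries, against 385 and 402 TPM in vehicle libraries. Most of it was Pdgfrb, which was named after its values were seen. Pdgfrb had 327 and 294 TPM in TGFbeta libraries, against 285 and 294 TPM in vehicle libraries. Notch3 fell to 21.1 and 17.4 TPM in TGFbeta libraries, against 74.0 and 83.9 TPM in vehicle libraries (log2 change -1.99, SE 0.16, limma adjusted p = 0.00633). That call ended without vehicle 1 and without vehicle 2, as did the calls of all other genes. Cspg4, the gene of the pericyte proteoglycan NG2, had 22.5 and 16.7 TPM in TGFbeta libraries, against 12.4 and 10.7 TPM in vehicle libraries (log2 change 0.70, limma adjusted p = 0.0964). The pericyte gene Rgs5 was high in TGFbeta 2 alone, with 1.95 and 13.5 TPM in TGFbeta libraries, against 2.26 and 2.47 TPM in vehicle libraries. Of 10 macrophage and leukocyte markers, 0 of 9 tested were called by limma (2 at an unadjusted p under 0.05). They summed to 66.0 and 71.6 TPM in TGFbeta libraries, against 80.1 and 99.6 TPM in vehicle libraries. Most of that sum was Lyz2, with 42.9 and 48.1 TPM in TGFbeta libraries, against 55.2 and 66.4 TPM in vehicle libraries. The largest absolute log2 changes among them were -0.70 for Cd14, -0.46 for Cd68 and -0.41 for Lyz2 (limma adjusted p = 0.111, 0.233 and 0.177). C1qb, Itgam and Ptprc, named after their values were seen, lay at 0.37, 0.12 and 0.00, and the other tested markers below 0. The median log2 change was -0.08, against -0.13 for all tested genes. The part of other cells in the connexin and pannexin levels was not tested.

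Under the alternative settings the differences of Gja1 and Gjb5 kept their sign, at 0.86 to 1.13 and 0.88 to 1.44 on the log2 scale. Those of Gja4 and Panx1 also did, but ran from 0.30 to 0.95 and from 0.10 to 0.60, with the ends set by which TGFbeta library was left out. Gjc1 ran from -0.37 to 0.05. The calls of Gja1 and Gjb5 ended with any 1 library left out. Since the 7 were chosen on this contrast, nothing is read from having or losing a call.

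**Figure D4:**
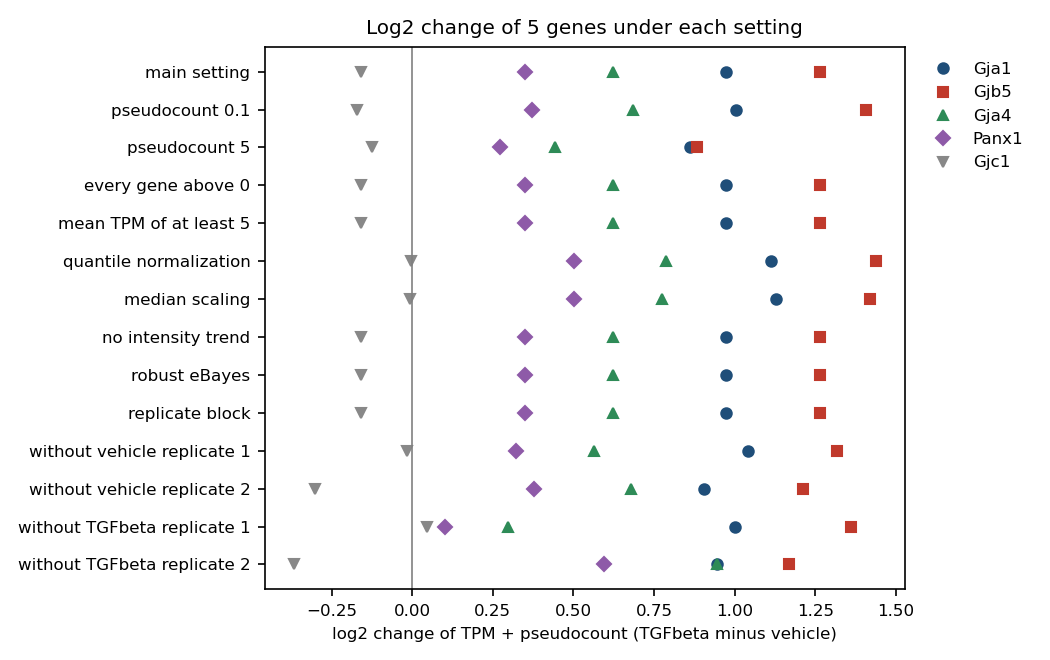
Log2 change, TGFbeta minus vehicle, of the 5 genes that passed the expression filter under the chosen setting and 13 alternatives, 1 row each. Gja1 and Gjb5 stay at 0.86 or more in every row, Gja4 and Panx1 are at 0.30 and 0.10 without TGFbeta 1, and Gjc1 lies at or near 0 after scaling.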

How the data were processed

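RNA was measured in 4 libraries of mouse cardiac fibroblasts, 2 with TGFbeta and 2 with vehicle. The authors deposited 1 TPM value per gene symbol and library, per the file headers. An aligner and a build were not given in the sources used here. Since TPM does not keep read numbers, the depth is unknown and counting error cannot be stated.

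Levels were tested as log2(TPM + 1) for genes with a mean of at least 1 TPM, with limma 3.58.1 in R 4.3.3 (lmFit, then eBayes with trend), as a two-sided test of treatment with p adjusted by Benjamini-Hochberg over 15815 genes. Mean ± SD is over 2 libraries and folds are ratios of mean TPM. The procedure was tested on simulated data. The labels do not say that libraries are separate cultures or animals, so p-values reflect the spread between these libraries, which may be technical.

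The 7 genes, the 13 lists of partners and markers and the alternatives were chosen with earlier results of these data known. Some family genes are not reported here. Named were the other family genes that were tested or were listed at 0 in all libraries. Of each list, the 3 tested genes with the largest absolute log2 change were named. So were the 3 genes most like each chosen gene with a mean of at least 5 TPM. Others are marked in the text as named later, or are defining markers. Alternatives were pseudocounts of 0.1 and 5, other filters on low values, median scaling, quantile normalization, limma without a trend or robust, a replicate block, and each library left out. Lists are described by counts and medians without a list test. Positions and transcripts are from GENCODE M21, matched by symbol, and promoters from RefSeq.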

Additional observations from a re-analysis of the deposited data

How the results depend on the processing

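A total of 13 alternatives were run. Over all tested genes, limma calls numbered 936 (244 higher and 692 lower with TGFbeta). It called 602 without an intensity trend, and 0 when every gene above 0 was tested (4348 at an unadjusted p under 0.05), where 0 of the 7 chosen genes (2 at an unadjusted p under 0.05), 0 other family members (1) and 0 list genes (49) were called. With a mean of at least 5 TPM, 20 list genes were called in place of 13. With 1 library left out, the calls ranged from 0 to 203 over all genes (at least 2407 at an unadjusted p under 0.05), were 0 for the chosen genes and for the other family members analysed, and 0 to 6 for list genes. The 0 counts over all genes came without vehicle 1 and without vehicle 2; the lone library of a group is then assumed to vary like the other group. The Gjc1 log2 change then ranged from -0.37 to 0.046, the only change among the 5 tested chosen genes whose sign turned.

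Scaling moved the all-gene median log2 change from -0.13 to 0.03 (median scaling) and 0.02 (quantile normalization); 421 of 822 and 333 of 734 calls were higher, against 244 of 936. Under both, 2 of the chosen genes were called. As these genes were chosen on this contrast, nothing is read from their counts of calls under any setting. With the replicate block 631 genes were called, 186 of them higher, with 2 calls among the chosen genes, 0 among the other family members analysed and 10 among list genes. The list calls of Prkcd, Cdk1, Tyk2 and Klf4 ended under the block and Col2a1 was called. The labels do not say that equal numbers pair libraries, and with 2 numbers the correlation of their deviations was -0.05, so the block is only an alternative. Gjb2 and Panx3, near 0 TPM, were too low to compare at an unknown depth. The causes of these changes were not tested.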
